A study of Mus musculus with 2 samples.

Results

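The transcripts described here are 45 genes of the cell cycle and of proliferation. They were taken as a list of known members with no cut on their values. Earlier results of these data were known when the list was chosen. All 45 were found by gene symbol among 29982 genes with values, through 65 probes. They were measured in embryonic mouse ureters with and without the nuclear receptor gene Pparg, on 2 dual-colour whole-genome oligonucleotide arrays. Ureters of strain NMRI were dissected at E16.5, sorted by sex and pooled, so that each RNA is a pool of whole ureters that holds urothelium, mesenchyme and the cells that come with them. Controls carried the genotype Pparg(fl/?) and, by the study's methods, no cre. Pparg-cKO embryos carried Pax2-cre/+; Pparg(fl/fl), in which Pax2-cre recombines in the nephric duct and its derivatives, the ureteric epithelium and the collecting duct, so that the ureteric mesenchyme keeps the gene. Array 1 held the female pools and array 2 the male pools, with the dyes exchanged. The label of the Pparg-cKO channel gives E14.5 on both arrays, while titles and the other channel give E16.5.

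The cell cycle is driven by cyclin-dependent kinases (CDKs) that become active when bound to a cyclin. D-type cyclins with Cdk4 and Cdk6 phosphorylate the retinoblastoma protein in G1, which frees E2F factors to switch on the genes of DNA replication, and cyclin E with Cdk2 completes the entry into S phase. Cyclin A and cyclin B with Cdk1, switched on through Foxm1, Mybl2 and their partners, carry the cell through G2 and mitosis, while CDK inhibitors hold cells in or return them to a resting state. In the fetal ureter, epithelial progenitors and the mesenchyme around them both divide while the urothelium becomes layered. Proliferation in the Pparg-cKO urothelium was one of the questions of the study, which followed it by staining for the Ki67 antigen, the product of Mki67. Those counts cover the urothelium alone and stages later than these arrays, and the study reports more proliferation in the mutant there. It gives no such count at E16.5, so the RNA values here have no direct counterpart in that staining. In RNA of a whole organ, fewer dividing cells and less of these transcripts per cell cannot be told apart.

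The dye labels put the control RNA in the red channel (AlexaFluor647) of the female array and in the green channel (AlexaFluor555) of the male array. The direction used for fold changes in the study runs the opposite way on either array. The RNA that was red on array 1 and green on array 2 is therefore called RNA A and the other RNA B, all ratios are log2 of RNA A over RNA B, and no genotype is drawn from them. RNA A is the control by the labels and the Pparg-cKO by the study's direction. Sizes and counts do not depend on this. Dye and sex changed together from array 1 to array 2 and cannot be told apart.

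None of the 45 genes passed a test or filter for a difference between the RNAs. The filter follows the kind of thresholds used in the study. It asks for a change of 1.5-fold or more with the same sign on either array, and for a signal of 100 or more in whichever RNA is brighter, and no member met it. Of all 29982 genes, 0.157% passed it with the higher signal in RNA A and 0.23% with the higher in RNA B. No member passed 1.5-fold in opposite directions either, against 0.43% of all genes. These counts take the brightest probe of each gene. Over all 65 probes of the members, 0 passed with the same sign on both arrays and 1, a dimmer probe of Cdk1, with opposite signs. limma, fitted to the 2 log2 ratios of all 21429 genes well above background, called 0 members at an adjusted p under 0.05, against 0.126% of genes called brighter in RNA A and 0.187% called brighter in RNA B. At an unadjusted p under 0.05, limma also called 0 members. The lowest unadjusted p of a member was 0.377, with an adjusted p of 1.00, for Cenpf.

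The mean log2 ratio of the 45 members over both arrays ran from -0.11 (Cdk6) to 0.20 (Cenpf), with a median of 0.024, beside a median of 0.0067 over all genes tested. The spread of these means was also narrow, with an SD over members of 0.080, beside 0.23 over all genes tested. The moderated 95% interval of the mean lay wholly within 1.5-fold (0.58 on the log2 scale) in either direction for 35 of 45 members, beside 52.2% of all genes tested. For these 35, a difference of 1.5-fold or more was outside the interval. For the other 10 the interval reached past it, with the lowest bound at -0.62 (E2f1) and the highest at 0.69 (Cenpf). When genes not well above background were kept in the fit, which widens the shared variance, 0 of 45 intervals lay within 1.5-fold. All 45 members were well above background in all 4 channels. Cdk6 and Cenpf stayed under a signal of 100 in all 4, so the filter could not have taken them at any fold, and without the threshold it still counted 0 members. The 2 arrays give each gene a single degree of freedom of its own, and the intervals rest on a variance shared among genes (8.59 degrees of freedom in all).

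**Figure D1:**
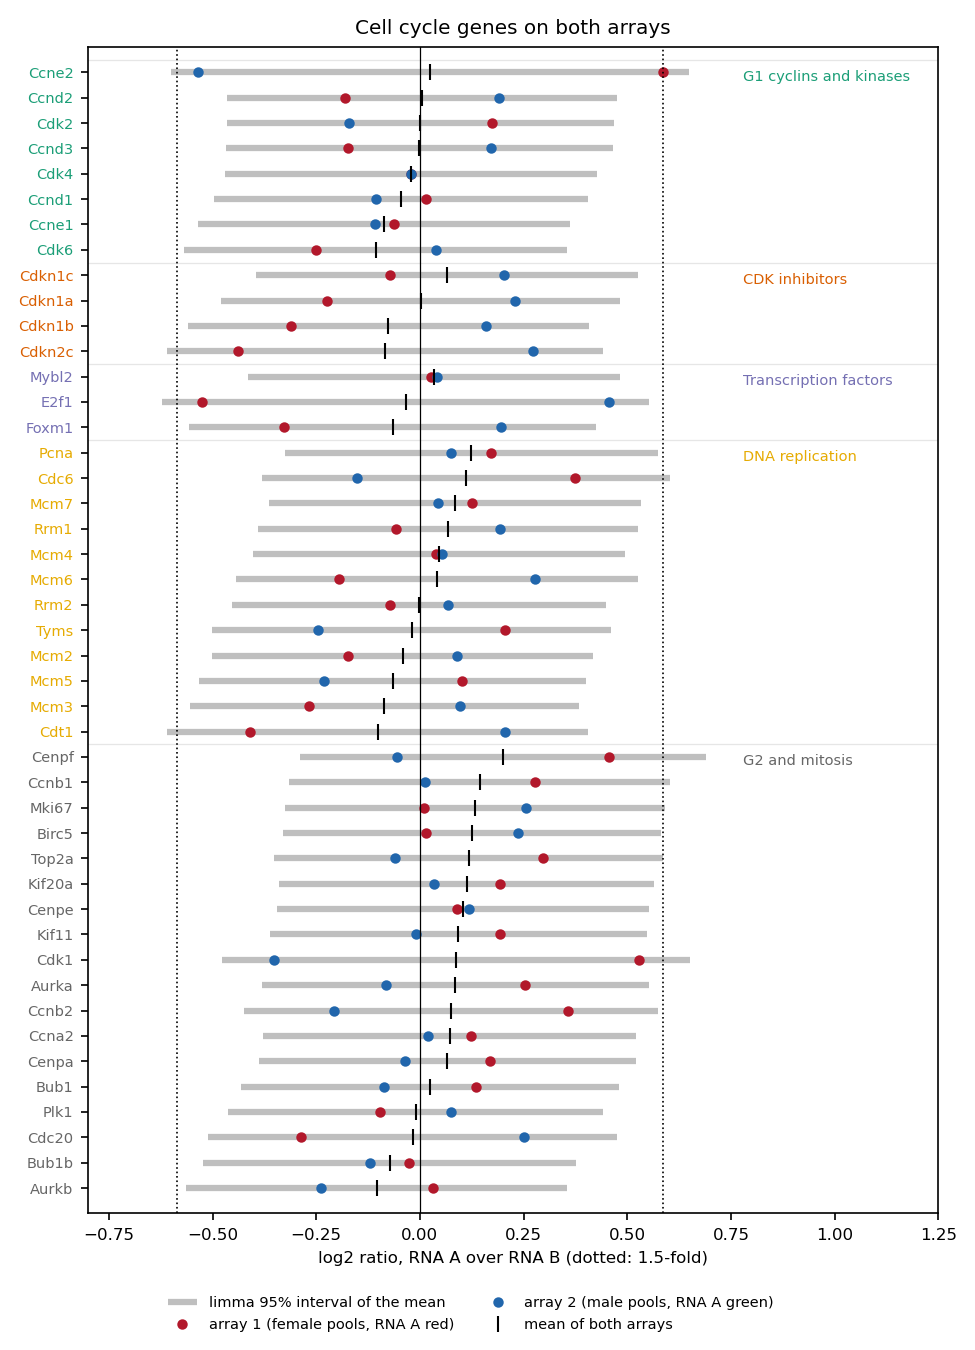
Log2 ratio of RNA A over RNA B for the 45 members, ordered by role, on array 1 (red points, female pools) and array 2 (blue points, male pools), with the mean (tick) and its limma 95% interval (grey bar). Dotted lines mark 1.5-fold. All means lie between -0.11 and 0.20, and among these brightest probes only Ccne2 reaches 1.5-fold on an array, on array 1.

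The G1 cyclins and kinases showed 0 members brighter in RNA A on both arrays. Their median log2 ratio was -0.011, within a range of -0.11 to 0.025 over 8 genes. Ccnd1, the cyclin that links growth signals to the G1 kinases, had signals of 5394 for RNA A against 5342 for RNA B on array 1, with 6371 against 6857 on array 2. Both RNAs of array 2 were higher than both of array 1, and the RNAs of an array were close to each other, with a log2 ratio of -0.046 ± 0.085 (SD, n = 2 arrays). Ccnd2 and Ccnd3, the other D-type cyclins, were on average equal in the RNAs, with log2 ratios of 0.0056 and -0.00098, since each was dimmer in RNA A on array 1 (-0.18 and -0.17) and brighter on array 2 (0.19 and 0.17). Cdk4, a catalytic partner of the D-type cyclins, was the steadiest member by brightest probes. That probe gave 26717 for RNA A against 27119.8 for RNA B on array 1, with 26647 against 27063 on array 2. Its log2 ratio was -0.022 on both arrays. The other probes of Cdk4 were less steady, at 0.18 and -0.19, 0.0022 and 0.076, and 0.046 and -0.15 (array 1, then array 2).

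Cdk6, the other partner of the D-type cyclins, was the dimmest member, at 40.4 and 48.1 on array 1 and 51.6 and 50.2 on array 2. Its ratio was the lowest of the 45, at -0.11 ± 0.20, and was negative on array 1 only. Ccne1, a cyclin E, had signals of 4191 for RNA A against 4375 for RNA B on array 1, with 4069.6 against 4389.7 on array 2. By brightest probes it was 1 of the 3 members dimmer in RNA A on both arrays, with Cdk4 and the checkpoint kinase gene Bub1b. The log2 ratio of Ccne1 was -0.086 ± 0.033, though the mean over its 2 probes was 0.020. Ccne2, the other cyclin E (probe at chr4:11131423-11131482, mm9, plus strand), gave 138 and 92.2 on array 1 and 91.6 and 133 on array 2. Whichever RNA was red was brighter, with log2 ratios of 0.59 and -0.54, so that its mean ratio of 0.025 ± 0.79 was near 0. Cdk2, the kinase bound by cyclin E, had a mean ratio of 0.0013 ± 0.24.

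The CDK inhibitors were dimmer in RNA A on array 1 and brighter on array 2 in all 4 cases, that is, brighter in the green channel on both arrays, and their median ratio was -0.27 on array 1, 0.22 on array 2 and -0.037 over both. Cdkn1c, an imprinted inhibitor that holds cells in a resting state in many embryonic tissues, gave 31440.1 for RNA A against 33051 for RNA B on array 1, with 40286 against 34995 on array 2. The RNAs overlapped between arrays and the ratio was 0.066 ± 0.19. Cdkn1b, the inhibitor of cyclin E and Cdk2 in cells leaving the cycle, gave 2037 and 2528 on array 1 and 2718 and 2434 on array 2. Cdkn1a, the inhibitor induced by Trp53, gave 121 and 141 on array 1 and 151 and 129 on array 2, with a mean ratio of 0.0021. Cdkn2c, an inhibitor of Cdk4 and Cdk6, gave 736 and 997 on array 1 and 1177 and 975 on array 2. For all 4, RNA A was the lowest of the 4 channels on array 1 and the highest on array 2, and no inhibitor held a direction at its brightest probe. A dim second probe of Cdkn1b had RNA A dimmer on both arrays, at -0.11 and -0.22.

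**Figure D2:**
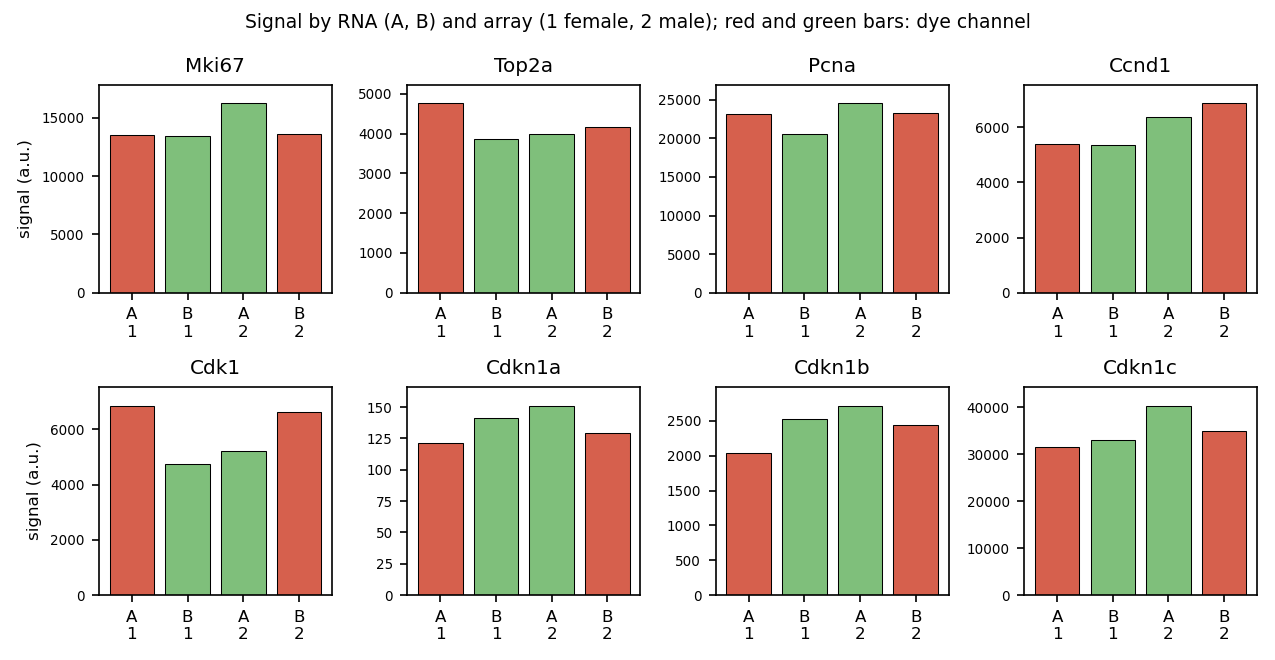
Processed signal (arbitrary units, bars from 0) of 8 members in RNA A and RNA B on array 1 (female pools) and array 2 (male pools). Red and green bars are the red and green dye channels. Cdk1 is higher in both red channels, Cdkn1a and Cdkn1b have their highest bar in RNA A of array 2, and Mki67 is nearly level in 3 of 4 channels.

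Among the 3 transcription factors, Mybl2, which switches on G2 genes together with the DREAM-related MuvB complex, was level at its brightest probe, at 908 and 892 on array 1 and 1076 and 1045 on array 2. Another probe gave 357 and 556 on array 1 and 575 and 538 on array 2, so it was dimmer in RNA A on array 1 (-0.64). Foxm1, the forkhead factor of the G2 programme, had ratios of -0.33 and 0.20 at its brightest probe. A far dimmer probe of Foxm1 had RNA A dimmer on both arrays, at -0.42 and -0.20. E2f1, the activating E2F factor (probe at chr2:154385798-154385857, mm9, minus strand), gave 408 for RNA A against 587 for RNA B on array 1, with 725 against 529 on array 2. RNA A was thus both the lowest and the highest of the 4 values, and the log2 ratios of -0.52 and 0.45 averaged -0.035 ± 0.69. The group's median was -0.33 on array 1 and 0.20 on array 2, and -0.035 over both, or -0.12 with the mean over each gene's probes.

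The genes of DNA replication had a median ratio of 0.019, with 6 of 12 means above 0, beside 51.9% of all genes tested. Pcna, the sliding clamp of DNA polymerase, gave 23198 for RNA A against 20588 for RNA B on array 1, with 24508 against 23255 on array 2. It was brighter in RNA A on both arrays, at 0.12 ± 0.068 and an unadjusted limma p of 0.546. Mcm4 and Mcm7, subunits of the replicative helicase, also had RNA A brighter on both arrays, at 0.046 ± 0.011 and 0.085 ± 0.058, and the other 4 subunits on the list, Mcm2, Mcm3, Mcm5 and Mcm6, changed sign between arrays. The 6 subunits act as a single complex, and their mean ratios at the brightest probes lay between -0.086 (Mcm3) and 0.085 (Mcm7).

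Mcm3 itself gave 5429 and 6537 on array 1 and 6184 and 5783 on array 2. Its other probe gave log2 ratios of -0.054 and 0.16, and the mean over its probes was -0.017. Cdc6 and Cdt1, which load the helicase onto origins, went opposite ways with the dye. Cdc6 gave 754 and 582 on array 1 and 616 and 685 on array 2, brighter in red on both, with a mean of 0.11 ± 0.37. Cdt1 gave 1392 and 1848 on array 1 and 2054 and 1782 on array 2, brighter in green on both, with a mean of -0.10 ± 0.43. Of the enzymes that supply nucleotides, Rrm1 and Rrm2, the subunits of ribonucleotide reductase, averaged 0.068 and -0.0025, and Tyms, thymidylate synthase, averaged -0.020, each with opposite signs on the arrays.

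The genes of G2 and mitosis had the highest median of the roles, 0.087, and 14 of 18 means lay above 0, beside 51.9% of all genes tested. The role's median was 0.15 on array 1 and -0.022 on array 2, so this direction rested on array 1. The shift was also small, since the largest mean was 0.20 and the 6 members brighter in RNA A on both arrays (Ccna2, Ccnb1, Mki67, Birc5, Cenpe and Kif20a) had means of 0.072 to 0.14. Mki67 (probe at chr7:142881591-142881650, mm9, minus strand) is the gene of the proliferation antigen that the study counted at later stages. It gave 13518 for RNA A against 13422 for RNA B on array 1, with 16226 against 13590.2 on array 2. The RNAs were equal within a log2 ratio of 0.010 on array 1 and differed by 0.26 on array 2, a mean of 0.13 ± 0.17 with a 95% interval of -0.32 to 0.59. Its other probe, which lies 3173 bases further 5′, gave ratios of 0.077 and 0.093.

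Top2a, the topoisomerase that untangles replicated chromosomes, gave 4757 and 3875 on array 1 and 3998 and 4169 on array 2. It was brighter in RNA A on array 1 only, at a mean of 0.12 ± 0.25. Ccnb1, cyclin B1, gave 10985 and 9067 on array 1 and 10207 and 10124 on array 2, a mean of 0.14 ± 0.19. Its other 2 probes gave 0.63 and 0.69 on array 1, past 1.5-fold, and -0.10 and -0.049 on array 2, and the mean over its probes was 0.24. Birc5, survivin, a subunit of the chromosomal passenger complex, gave 14076 and 13930.0 on array 1 and 17121 and 14538 on array 2. This probe was level on array 1 and brighter in RNA A on array 2, like that of Mki67, but the other 2 probes of Birc5 had RNA A brighter on array 1 (0.42 and 0.45) and dimmer on array 2 (-0.17 and -0.061).

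Cdk1, the kinase of mitosis (probe at chr10:68801072-68801131, mm9, minus strand), had the largest ratio of this role on a single array among brightest probes, and its sign changed between the arrays. It gave 6861 for RNA A against 4761 for RNA B on array 1, with 5204 against 6644 on array 2. Both red channels exceeded both green ones, the log2 ratios were 0.53 and -0.35, and the mean was 0.087 ± 0.62. A dim probe further 3′ had RNA A brighter on both arrays, at 0.51 and 0.27, and the mean over the 3 probes was 0.21. Ccnb2, cyclin B2, followed the same order with 7499.7 and 5857 on array 1 and 6311 and 7286 on array 2. Cenpf, a kinetochore protein and the member with the highest mean (0.20 ± 0.36), was dim, at 99.7 and 72.7 on array 1 and 86.0 and 89.3 on array 2, and its direction rested on array 1. Kif20a, a kinesin of cytokinesis, gave 5346 and 4676 on array 1 and 5146 and 5029 on array 2.

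The lowest means of this role were those of Aurkb, the kinase of the passenger complex, and of Bub1b, a kinase of the spindle checkpoint. Aurkb gave 104 and 102 on array 1 and 109 and 128 on array 2, and Bub1b 1987 and 2023 on array 1 and 2089.9 and 2272 on array 2. In Aurkb the difference came from array 2 alone, and in Bub1b the log2 ratios were -0.025 and -0.12. The remaining 8 members of the role (Aurka, Bub1, Ccna2, Cdc20, Cenpa, Cenpe, Kif11 and Plk1) ranged in their means from -0.018 (Cdc20) to 0.10 (Cenpe).

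**Figure D3:**
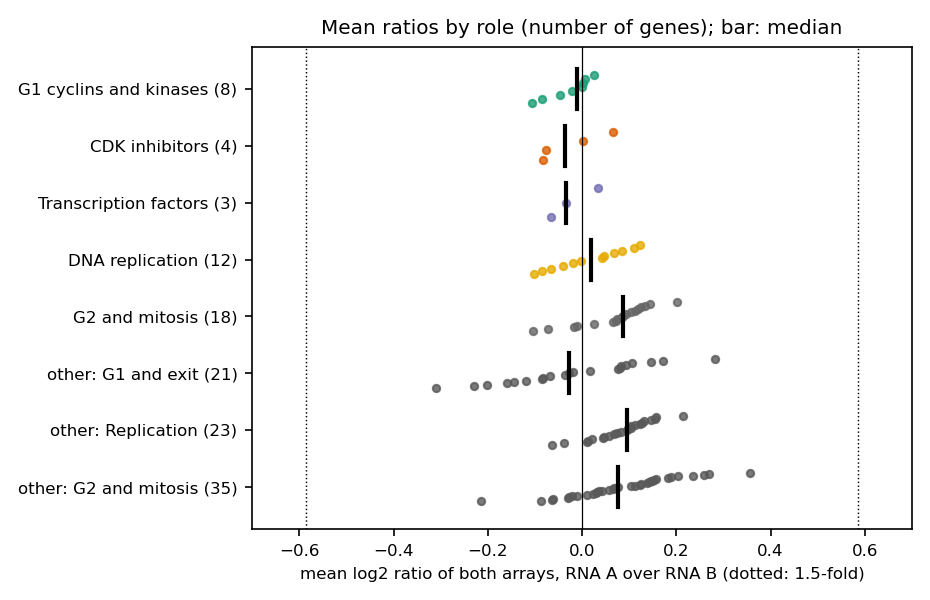
Mean log2 ratio of both arrays (RNA A over RNA B) for the members by role (upper 5 rows) and for 79 other cell cycle genes (lower 3 rows), with the number of genes in parentheses and a bar at each median. All points lie inside the dotted 1.5-fold lines, and the medians run from -0.037 to 0.10.

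A list of 80 other cell cycle genes that are no members was read in the same way. Of these, 79 were well above background and tested, and 0 passed the filter or were called by limma in either direction, also at an unadjusted p under 0.05. Cdkn2a, an inhibitor and senescence gene, was the exception, not well above background. Over all genes, the filter took 0.157% and 0.23%, and limma called 0.126% and 0.187% (brighter in RNA A, then in RNA B). The interval lay within 1.5-fold for 46 of 79, beside 52.2% of all genes tested. The replication genes of this list had a median of 0.096 with 21 of 23 means above 0, beside 51.9% of all genes tested. Those of G2 and mitosis had a median of 0.077 with 27 of 35 above 0. Those of G1 and exit had a median of -0.027 with 9 of 21 above 0. By array, the medians of the replication genes were 0.14 and 0.0069 and those of G2 and mitosis 0.26 and -0.051, so array 1 carried most of both. The highest were Ndc80 (0.36 ± 0.55) and Nuf2 (0.27 ± 0.47), which form a kinetochore complex, and Cdk7 (0.28 ± 0.43), the kinase that activates CDKs. Each of these 3 was brighter in RNA A on array 1 only. The lowest were Btg2 (-0.31 ± 0.065), an antiproliferative gene, E2f4 (-0.23 ± 0.26), a repressing E2F factor, and Espl1 (-0.21 ± 0.067), separase, and these were dimmer in RNA A on both arrays.

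Most members changed sign between the arrays, as did most genes. Of the 45 members, 32 had opposite signs on the arrays: 15 were brighter in the red channel on both arrays, beside 28.4% of all genes tested, and 17 in the green channel on both, beside 32.6%. Only 10 had RNA A brighter on both arrays and 3 had RNA B brighter on both, beside 21.6% and 17.4% of all genes tested. The mean log2 of red over green ran from -0.49 (E2f1) to 0.56 (Ccne2) with an SD over members of 0.21, against the SD of 0.080 for RNA A over RNA B. Over all genes tested the SDs were 0.25 and 0.23. Repeat spots of a probe gave far closer values, with a median SD of the log2 ratio over spots of 0.027 and a highest of 0.18 (Cdk6). Spots of an array measure the same RNA, so this spread covers neither the pools nor the exchange of dyes.

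**Figure D4:**
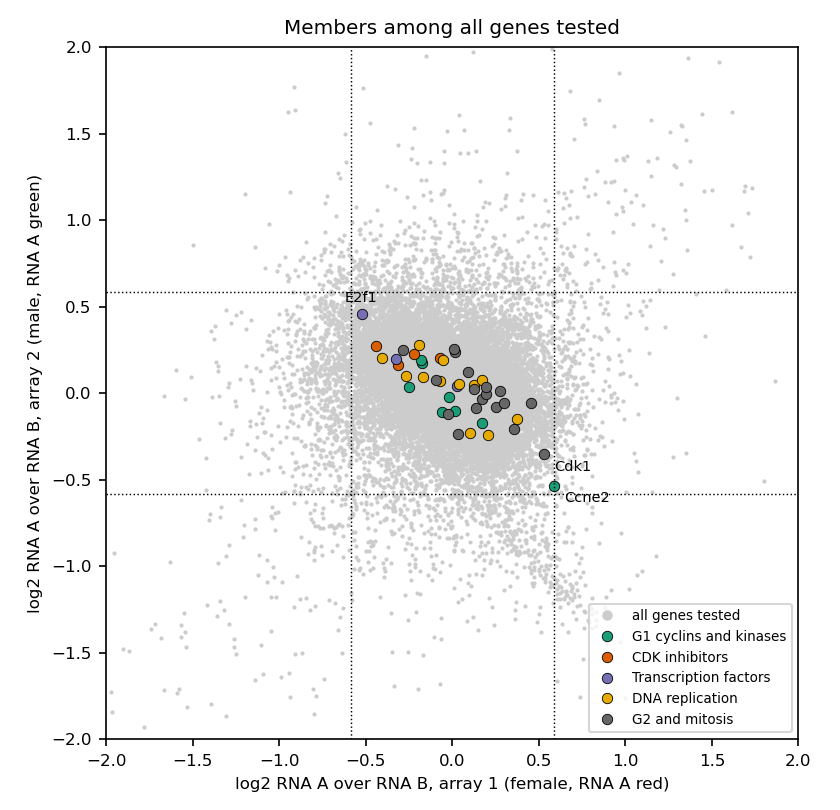
Log2 ratio of RNA A over RNA B on array 1 (horizontal) and array 2 (vertical) for the members (outlined points, coloured by role) and all genes tested (light grey, 36 genes beyond the axes are not drawn). The members' brightest probes lie inside the dotted 1.5-fold lines apart from Ccne2, and spread from upper left to lower right, which is the direction of a dye or sex difference. A limma call rests on the mean of both arrays, and the called genes are not marked.

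Red over green varied with the position of the probe in the transcript, a pattern that was chosen for description after its values were seen. Of the 13 members with more than 1 probe, 11 had probes well above background whose centres lay at least 60 bases apart. In 11 of 11, the probe nearest the 5′ end had a higher red over green than the probe nearest the 3′ end, by a median of 0.27 on the log2 scale. Over all genes with such probes (5098), 67.6% showed this order, with a median difference of 0.099, so the order was that of most genes on these arrays and is no property shown for the members. In Cdc6 the 5′ probe was at 0.26 and the 3′ probe at -0.20, and in Birc5 at 0.29 and -0.11, which changes the sign. For RNA A over RNA B no such order was seen in the members: the 5′ probe was the higher in 5 of 11, with a median difference of -0.0011, beside 58.2% and 0.027 over all genes. The cause of the order was not tested. Probe base composition gave little relation with red over green, with Spearman's rho of -0.11 over the 62 probes of members that were well above background and of -0.040 over all 28298 such probes, which share the arrays and their dye normalisation.

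**Figure D5:**
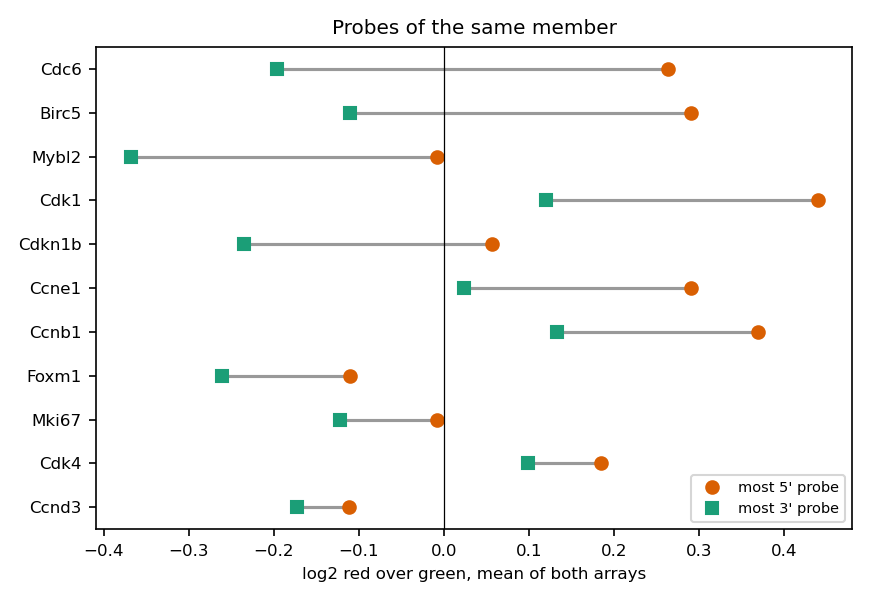
Mean log2 of red over green on both arrays for the most 5′ probe (orange circles) and the most 3′ probe (green squares) of the 11 members with separated probes. The circle lies to the right of the square in all 11, by 0.061 (Ccnd3) to 0.46 (Cdc6).

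Cdk1 and Cdk4 each have a pair of probes that share most of their bases, and their ratios are set side by side here. Cdk1 has 2 probes of 60 bases that overlap by 41. The brighter lies at chr10:68801072-68801131 and the other at chr10:68801053-68801112 (mm9, minus strand). The 19 bases that each holds alone, all shown in lower case, are the only difference between them.
Cdk1, 5′ probe only: ttcttaatttcctacgtat
Cdk1, 3′ probe only: tataattctgtatatgtgc
The 5′ probe gave log2 ratios of 0.53 and -0.35, and the 3′ probe 0.87 and -0.59. Both were brighter in red on both arrays, and their means over the arrays, 0.087 and 0.14, were close. Their mean red over green was 0.44 (5′) and 0.73 (3′), so this pair ran against the probe order described above. That order took only probes at least 60 bases apart, so overlapping pairs were not compared in it. The GC content of the unshared stretches was the same, 26.3%. A similar pair of Cdk4, which shares 53 of 60 bases, gave means of -0.022 and -0.053. Red over green in this pair, 0.00038 (5′) and 0.10 (3′), also ran against the order. The 2 probes of Mcm3 also overlap by their coordinates, and their means differed in sign, at -0.086 and 0.051. Red over green in the Mcm3 pair, -0.10 (5′) and -0.18 (3′), followed the order.

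The levels of array 1 against array 2, averaged over both RNAs and dyes and centred on the median of all genes, give female against male pools, though sex and array cannot be told apart and there is a single array for each sex. Members lay between -0.26 (E2f1) and 0.22 (Tyms) on the log2 scale, with an SD of 0.12, beside 0.29 over all genes tested. All 4 CDK inhibitors and all 3 transcription factors were lower on the female array, with values between -0.013 (Cdkn1a) and -0.26 (E2f1). Ccnd1 (-0.22), Aurka (-0.22) and Cdc20 (-0.20) were also among the lower ones, while Top2a (0.15), Rrm1 (0.13) and Bub1 (0.13) were among the higher. With 1 array for each sex these are values without a test.

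Promoter elements known from cell cycle genes, which the list did not use, were found in part of the members. Promoter windows of RefSeq (GRCm38.p6), each from 250 bases before to 50 after a start, were found for 36 of 45 members. The CCAAT box (CCAAT on either strand) was present in 26 of 36, or 72.2%, beside 41.1% of all 27025 genes in the table. The cell cycle homology region (TTTGAA or TTCGAA on either strand), bound by the complexes that switch mitotic genes off and on, was present in 14 of 36, or 38.9%, beside 21.7%, and 12 of the 14 were genes of G2 and mitosis. An E2F element (TTTCCCGC, TTTCGCGC, TTTGCCGC or TTTGGCGC on either strand) was present in 8 of 36, or 22.2%, beside 2.61%, and 6 of the 8 were replication genes. These letters are a description and no evidence of binding. Any link between the elements and the ratios was not tested. The cell cycle homology matches nearest the start are shown in capitals for the G2 and mitosis members described above, on the strand of the gene.
Bub1b, chr2:118598240-118598260, plus: gagacgttaaaTTTGAAactt
Ccnb2, chr9:70421534-70421561, minus: gcggcgcggtaTTTGAAtcgcggaccgg
Cdk1, chr10:69352911-69352938, minus: accgcggcgagTTTGAAactgctggcac
Cenpf, chr1:189688068-189688095, minus: gcggcgggcagTTTGAAtcgctcgtgct
Mki67, chr7:135716461-135716488, minus: cgccgttttggTTTGAAtcgggcgggct
Top2a, chr11:99024196-99024223, minus: ctagataaaggTTCAAAtgaaactaggg
The E2F matches of the replication members described above are given in the same way.
Cdc6, chr11:98908003-98908030, plus: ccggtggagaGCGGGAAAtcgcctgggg
Cdt1, chr8:122568037-122568064, plus: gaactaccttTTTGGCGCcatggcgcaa
Mcm3, chr1:20820276-20820303, minus: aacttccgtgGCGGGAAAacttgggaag
The genes with the same element did not share a direction. Of those with the mitotic element, Cdk1 and Ccnb2 were brighter in red on both arrays. Mki67 was brighter in RNA A on both arrays (0.010 and 0.26), and Bub1b was dimmer in RNA A on both (-0.025 and -0.12).

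Markers of cell types in the same RNAs are set beside these values. Of 12 markers of the ureter epithelium, 7 had RNA B brighter on both arrays (median log2 ratio of all 12, -0.47). These were Upk1a, Upk1b, Upk2, Upk3a, Upk3b, Krt8 and Krt18. Krt5, a marker of basal cells, went the other way, brighter in RNA A on both arrays (0.26 and 0.67). Cdh1, Epcam, Krt19 and Trp63 changed sign between the arrays, with means of -0.22, 0.091, 0.00098 and -0.11. Of the mesenchyme and smooth muscle markers, 5 of 7 had RNA B brighter on both arrays (median of all 7, -0.56). The summed signal of the epithelial markers was 111605 and 126775 in RNA A and 170789 and 168513 in RNA B (array 1, then array 2). The largest differences on this list were those of Upk3b (-1.69 over both arrays) and Upk1a (-1.32), genes of uroplakins, the proteins that line superficial urothelial cells. The study reports both as decreased in Pparg-cKO ureters, in its array profiling and by in situ hybridization on sections. By that report RNA A, in which both are dimmer, would be the Pparg-cKO, against the dye labels. The summed signal of the muscle markers was 80877 and 77450.4 in RNA A and 101771 and 132894 in RNA B. Both lists were well above background throughout. The 4 macrophage markers had RNA A brighter on both arrays (median 0.18, summed signal of 4106 and 4285 against 3517 and 3832), and red blood cell and endothelial markers had medians of -0.018 and 0.039. Of 9 nephron markers, 6 were well above background, with a median of -0.17, and Umod and Slc12a1, of mature tubules, were not in any channel. Their part in the ratios of the cell cycle genes was not tested. Pparg itself gave 11295 and 12888 in RNA A and 7430 and 7872 in RNA B (log2 ratio 0.66 ± 0.076, adjusted p of 0.615 by limma). Whether its probe lies in the deleted exons was not determined here, so it checks no label.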

How the data were processed

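RNA of pooled ureters was compared on 2 dual-colour arrays, 1 of female and 1 of male pools, and nothing says that pools were repeated, so p-values measure the spread between these arrays. The deposited intensities came, per the file headers, from Agilent Feature Extraction 10.7.3.1. The authors' processed signals had the background taken off, surrogates in place of values near it, and dyes balanced within each array (linear, then LOWESS). Deposited log10 ratios served to verify which channel was which. The deposited table holds the authors' signed fold changes per array. Set against the scanner values it correlated with RNA A over RNA B at 0.997 on both arrays, over 14585 genes. The median of each of its columns was 1, its scale is that of a signed fold, and its centring and direction are not stated in it. Sample titles read Pparg-cKO vs control, which would make RNA A the Pparg-cKO and goes against the dye labels. It was used as an alternative.

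Control and flagged spots were left out (17263 controls and 5705 or 5579 flagged spots per array), the log2 signals of a probe's 4 spots were averaged, and a gene was represented by its brightest probe over the 4 channels. Probes were found by the symbol in the files, positions are those of the files (mm9), and RefSeq of GRCm38.p6 gave current symbols, older names of 80 other genes and promoters. The filter (1.5-fold, signal of 100) and limma 3.58.1 in R 4.3.3 (lmFit with an intercept, eBayes, Benjamini-Hochberg at 0.05) were run over all genes. Both were run on simulated ratios with independent noise on the arrays. These held no part bound to dye or sex, unlike the arrays here, so the run does not cover that setting. Members, roles, lists and tests were chosen with earlier results of these data known. Named are the 8 highest and 8 lowest means, the 6 largest opposite differences, 8 set genes, and the 3 highest and 3 lowest of the other genes. Remaining members were named for completeness after their values were seen. Alternatives were normexp (offset 50) followed by loess, loess applied to processed signals, median centring, the deposited table, the mean of probes, other thresholds, keeping dim probes, an intensity trend and leaving out each array. Tables were made with pandas 2.3.3 and plots with matplotlib 3.10.9. Both arrays lay on 1 slide, read in 1 scan, so no slide or scan block could be fitted. Precision is limited by the number of arrays.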

Additional observations from a re-analysis of the deposited data

Results flagged for a closer look

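For 32 of 45 members RNA A over RNA B had opposite signs in the female and the male pools. The difference was not tested, since there is 1 array for each sex and the dyes were exchanged with it, so that sex and dye cannot be told apart. The largest differences, female minus male on the log2 scale, were 1.12 for Ccne2, -0.98 for E2f1, 0.88 for Cdk1, -0.71 for Cdkn2c, -0.61 for Cdt1 and 0.56 for Ccnb2.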

How the results depend on the processing

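The count of 0 members past the filter held under the other normalisations, thresholds and probe rules tried, and that of 0 members called by limma under every alternative fit, with 0 at an unadjusted p under 0.05 in each. On single arrays, which give no test, the members past 1.5-fold numbered 0 to 1 in favour of RNA A (Ccne2 on array 1) and 0 in favour of RNA B. The median of the members was 0.0036 with normexp and loess and lay between 0.011 and 0.024 under the other alternatives, and was 0.015 to 0.042 on single arrays. Of 115 values of 23 named members under 5 other ways of making the values, 4 changed sign, 1 for Ccne1 and 3 for Cdkn1a, none over 0.020 in size. The probe order was seen in 10 to 11 of 11 members on single arrays and in 8 of 8 where both probes had a mean signal of 100, alternatives chosen after seeing the data. limma calls over all genes fell from 27 and 40 to 1 and 0 with normexp and loess, and to 0 both with the deposited table and when dim probes were kept. The causes were not tested. Depth in the sense of reads does not apply, all members were well above background, and the number of arrays limits what could be called.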
